A study of Bos taurus with 9 samples.

Results

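Liver transcriptomes of lactating Holstein dairy cows kept under heat stress (HS) were compared with those of cows kept in thermoneutrality (TN) and fed freely. The comparison took all libraries that the sample titles place in these groups, 3 HS and 3 TN cows, which are 6 of the 9 libraries of the study. The HS cows stood in a climate room with hot days and warm nights. The TN cows stayed at a mild temperature throughout. The other 3 cows were pair-fed (PF): they were kept at the mild temperature and received only as much feed as the HS cows ate. One biopsy per cow was made into 1 library (n = 3 cows in every group), and ages are not given in the sources used here. The mean days in milk that the paper gives were lowest in the TN group and highest in the PF group. Cows eat less in the heat, and heat and lower intake cannot be told apart in HS against TN; the values of the PF cows are given beside those of most genes described cow by cow.

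Heat unfolds proteins, and cells answer by making heat shock proteins, which hold or refold them in the cytosol, in the mitochondria and in the endoplasmic reticulum (ER). The liver of a lactating cow makes most of the glucose for milk from propionate and other precursors, exports plasma proteins, and burns fatty acids when feed is short. It also activates thyroid hormone, makes the iron hormone hepcidin and secretes acute phase proteins during inflammation. The mitochondria that carry out the oxidation hold a small genome of their own, which encodes some subunits of the respiratory chain, whereas most subunits come from nuclear genes.

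The 6 libraries held 16874444 to 22557047 counts, and the 3 PF libraries 17865601 to 19517728. None of the 12 hepatocyte markers examined was at 0, and their summed level, in CPM (counts scaled to library size and TMM-normalised), was 64431 to 140342 in HS cows and 69994 and 85105 in TN replicates 3 and 2. TN replicate 1 stood apart, with a sum of 18621 CPM, a TMM scaling factor of 1.35 and rank correlations across genes of 0.931 and 0.946 with its own group, where the other pair of TN libraries reached 0.969. Many medians of the gene lists and some log2 fold changes are therefore also given without that cow. Where no such value is given, the fold change may still have moved: that of HP, described below, went from 4.41 to 3.85. In a biopsy, fewer cells of a type and less RNA per cell cannot be told apart.

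To find the genes that differed between HS and TN, a differentially expressed gene (DEG) was taken to have a false discovery rate (FDR) under 0.1 in the quasi-likelihood F test of edgeR and a fold change over 1.5. Of 14582 genes tested, 13 were DEGs (0.0892%), of which 5 were higher (0.0343%) and 8 lower (0.0549%) in HS cows. All 13 are listed as protein coding, as are 13111 of the genes tested, and in all 13 the ranges of the HS and TN cows were separate, as in 2352 of the genes tested (16.1%). The 13 were chosen by their difference in these same libraries, so that their separate ranges add no support. An unadjusted p under 0.05 was reached by 1365 genes (9.36%), 602 of them higher (4.13%) and 763 lower (5.23%) in HS cows. DESeq2 on the same libraries called 270 DEGs (1.75% of the 15414 genes with an adjusted p), 133 higher (0.863%) and 137 lower (0.889%). The paper used DESeq2 with the same thresholds and reports these same numbers. Over all genes tested, the quartiles of the log2 fold change were -0.33 and 0.29, with a median of -0.01. Genes with a mean of 10 to 100 CPM had a median SE of 0.25 on the log2 scale, whereas genes of at most 1 CPM had one of 0.79, so that small differences were not detectable in the latter.

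**Figure D1:**
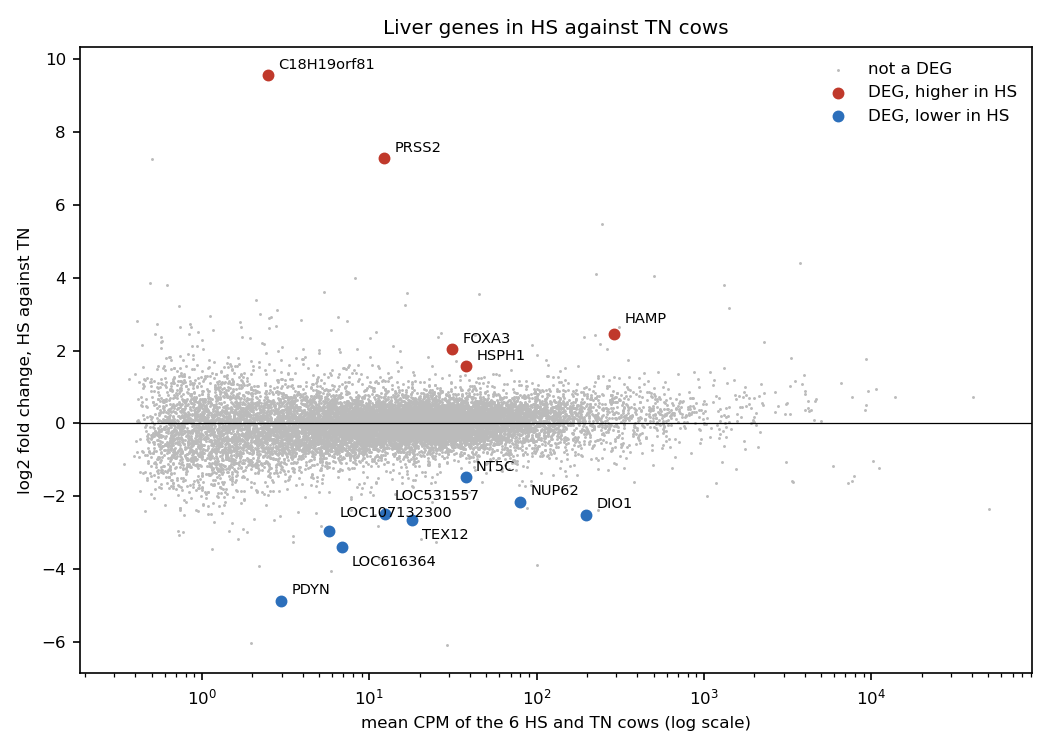
Log2 fold change of HS against TN (vertical axis) against the mean level of the 6 cows in CPM (horizontal axis, log scale) for the 14582 genes tested, with the 5 higher DEGs in red and the 8 lower ones in blue. The DEGs lie at the edges of the cloud at low, middle and high levels; the height of C18H19orf81, which had no count in any TN cow, depends on the prior count of the fit and is not a measured fold change.

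Among the higher DEGs were a chaperone, a liver transcription factor and the iron hormone. HSPH1, the HSP110 chaperone that assists HSP70 in refolding, was at 52.4, 56.2 and 62.7 CPM in HS replicates 1 to 3, and at 14.3, 19.9 and 23 CPM in TN cows. This was a log2 fold change of 1.56 (SE 0.23, FDR 0.0879), and the PF cows lay at 16.9, 27.5 and 14.5 CPM, all below the HS cows. FOXA3, a forkhead transcription factor of the liver, was at 48.2, 46.9 and 56.4 CPM in HS cows. TN cows had 8.78, 9.16 and 18.5 CPM of FOXA3, and the log2 fold change was 2.03 (SE 0.30, FDR 0.0919). The PF cows, with 3.7, 21.4 and 17.2 CPM, again lay below all HS cows. HAMP encodes hepcidin, the hormone that closes the iron exporter ferroportin. Its level was 533, 529 and 419 CPM in HS cows and 109, 100 and 52 CPM in TN cows (log2 fold change 2.47, SE 0.37, FDR 0.0919). Here the PF cows were spread widely, at 71.5 CPM (within the TN range), 686 CPM (above all HS cows) and 146 CPM (between the groups).

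Both other higher DEGs were nearly silent in TN cows. PRSS2, a trypsinogen best known from the pancreas, was at 34.1, 21.3 and 17.7 CPM in HS cows against 0, 0.495 and 0 CPM in TN cows (FDR 0.0684). One PF cow reached 24 CPM of PRSS2, while the others were at 0.449 and 0 CPM. The acinar markers CPA1, CPB1, CTRB1, CELA2A, PNLIP, CEL and CLPS were at 0 in all 6 HS and TN libraries. AMY2B of the same list was at 95.7, 175 and 130 CPM in HS cows and 143, 131 and 183 CPM in TN cows. The log2 fold changes of AMY2B and CELA1, the other markers tested, were -0.22 and -0.30. All 11 acinar markers summed to 131 to 198 CPM in HS cows and 133 to 184 CPM in TN cows. PRSS2 overlaps LOC100300510 and LOC509513 in the RefSeq annotation, and reads of near-identical trypsinogen copies may be split among them. C18H19orf81, an uncharacterised gene, had 150, 56 and 89 counts in HS cows and none in TN cows, so that its level was at least 29.9-fold higher in HS cows when the floor of 3 counts per library was set for TN. It had 37 counts in PF replicate 2 and none in the other PF cows. Its span overlaps SHANK1, and the strand setting of the counting is not given in the sources used here.

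Among the 8 lower DEGs was DIO1. It encodes the deiodinase that turns thyroxine into the active hormone in the liver. DIO1 fell by 2.50 on the log2 scale (SE 0.32, FDR 0.0684), from 274, 267 and 463 CPM in TN cows to 67.8, 52.6 and 60 CPM in HS cows. PF cows stood at 500, 430 and 344 CPM, in the range of the TN cows or above it, and DIO1 was the 1 DEG of the 13 that was also a DEG in HS against PF (log2 fold change -2.83, FDR 0.00294). PDYN, the precursor of the dynorphin opioid peptides, was at 5.44, 2.97 and 8.83 CPM in TN cows and at 0.111, 0.234 and 0.27 CPM in HS cows (log2 fold change -4.86, SE 0.62, FDR 0.0684). In PF cows it was at 2.7, 2.69 and 5.37 CPM, above every HS cow, and the log2 fold change of HS against PF was -4.15 (FDR 0.102).

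NUP62, a protein of the central channel of the nuclear pore, fell by 2.15 (SE 0.31, FDR 0.0879), from 171, 86.3 and 132 CPM in TN cows to 26.3, 28.8 and 35 CPM in HS cows. PF cows held 61.8, 34.1 and 55.2 CPM of NUP62, between the other groups but overlapping HS. Its locus overlaps IL4I1 and ATF5; ATF5, a stress-related transcription factor, was at 268, 195 and 203 CPM in HS cows and 360, 348 and 514 CPM in TN cows (log2 fold change -0.90, SE 0.31, FDR 0.462). NT5C, a nucleotidase that removes phosphate from deoxyribonucleotides, was at 52.9, 53.4 and 58.7 CPM in TN cows and 18.9, 18 and 23.7 CPM in HS cows (log2 fold change -1.47, SE 0.21, FDR 0.0843). PF cows had 4.88, 19.7 and 33.3 CPM, so that NT5C was the only DEG whose log2 fold change against PF, 0.06, had the other sign. NT5C overlaps JPT1 and ARMC7. TEX12, known as a component of the synaptonemal complex of meiosis, was at 50, 16.9 and 25.4 CPM in TN cows and 4.64, 4.45 and 6.07 CPM in HS cows (log2 fold change -2.66, SE 0.41, FDR 0.0919), with PF cows at 17.8, 4.65 and 18.5 CPM.

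The last 3 lower DEGs have no name beyond their locus numbers. LOC616364 was at 7.33, 12.7 and 17.4 CPM in TN cows and at 0.668, 1.82 and 1.15 CPM in HS cows (log2 fold change -3.40, SE 0.46, FDR 0.0718), and PF cows had 2.11, 5.78 and 1.18 CPM. For LOC107132300 the TN cows had 11.9, 10.3 and 8.35 CPM and the HS cows 0.817, 1.35 and 1.89 CPM (log2 fold change -2.97, SE 0.39, FDR 0.0684). The PF cows had 2, 2.24 and 2.35 CPM of it, closer to the HS than to the TN cows (log2 fold change of PF against TN -2.22, FDR 0.148). LOC531557 was at 32.7, 13.8 and 16.1 CPM in TN cows and 3.56, 3.16 and 4.72 CPM in HS cows (log2 fold change -2.50, SE 0.38, FDR 0.0919), and PF cows, at 18.6, 10.8 and 5.83 CPM, lay above the HS cows.

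**Figure D2:**
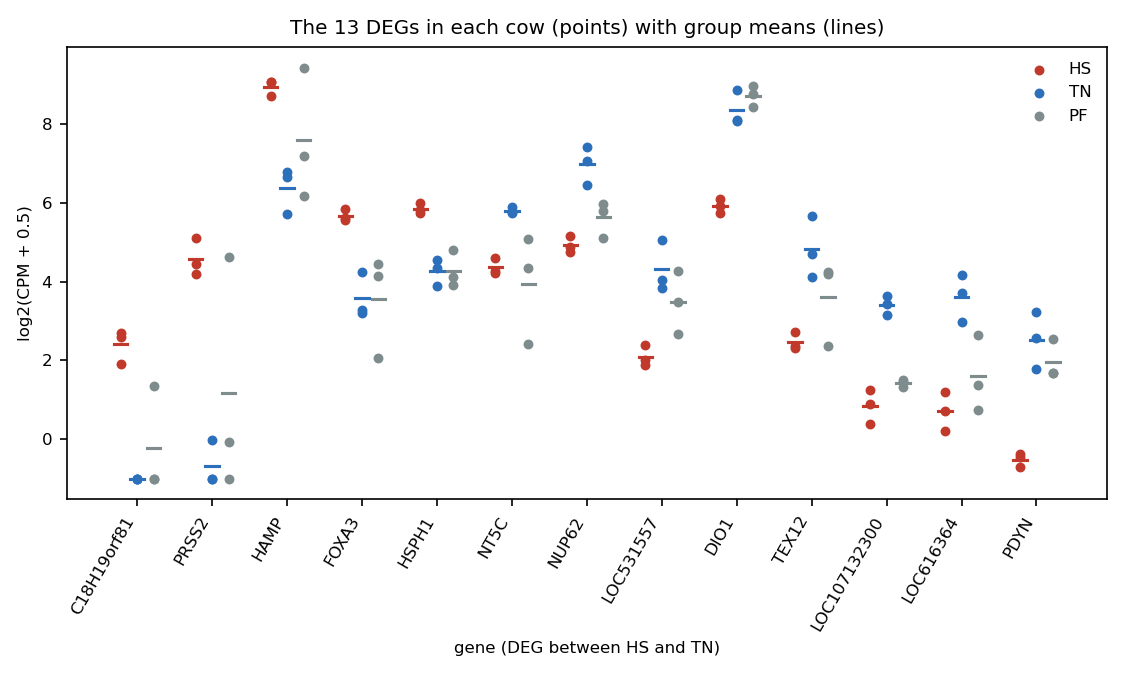
Level of the 13 DEGs in each cow as log2(CPM + 0.5) (vertical axis), with HS cows in red, TN cows in blue and PF cows in grey; lines are group means of these values. HS and TN cows do not overlap in any of the 13 genes, while the PF cows lie near TN for DIO1, HSPH1 and PDYN, near HS for LOC107132300 and on both sides for HAMP.

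Side by side, 12 of the 13 DEGs had the same direction in HS against PF as in HS against TN, 8 of them with an unadjusted p under 0.05 (5.32% of the 14510 genes tested in HS against PF), and in 7 the HS and PF cows did not overlap (10.6% of those genes). The HS libraries are shared by both comparisons and served to choose these genes. The directions, p-values and overlaps against PF are therefore not independent, and the shares of all genes are no fair reference for them. In PF against TN, edgeR called 0 DEGs (0% of 14580 genes; 1003 genes, 6.88%, with an unadjusted p under 0.05), and DESeq2 called 91 (0.555%). Of the 11 DEGs of HS against TN that could be tested there, LOC107132300 had the smallest FDR. HS against PF gave 4 DEGs with edgeR (0.0276%) and 122 with DESeq2 (0.771%).

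The number of DEGs changed when 1 cow was left out, which also leaves fewer libraries for the test. Without HS replicate 2 no gene passed in edgeR (1131 genes had an unadjusted p under 0.05), without HS replicate 1 there were 3 DEGs and without HS replicate 3 there were 7. Leaving out TN replicate 1 or 3 left 4 or 7 DEGs, whereas leaving out TN replicate 2 gave 39. PRSS2 was called in 4 of these 6 fits, C18H19orf81 in 3, DIO1, LOC107132300 and LOC616364 in 2, and HSPH1 and HAMP in none, with FDR values of 0.111 to 0.246 for HSPH1 and of 0.106 to 0.343 for HAMP. The log2 fold changes of all 13 kept their sign in these fits. They ran from 1.41 to 1.71 for HSPH1, from 2.20 to 2.69 for HAMP and from -2.64 to -2.21 for DIO1. The range was wider for TEX12 (-2.94 to -2.07, the latter without TN replicate 1), LOC616364 (-3.82 to -3.08) and LOC531557 (-2.72 to -1.97, the latter without TN replicate 1). For PRSS2, TN replicate 2 held all 8 counts of the TN group, and no fold change could be measured without it.

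The 12 genes that followed the DEGs in order of p, at an FDR of 0.105 to 0.125, included a pair of chaperones of the cytosol. HSPA6, a strictly inducible HSP70, was at 4.38, 3.93 and 4.99 CPM in HS cows and 0.439, 0.495 and 0.835 CPM in TN cows, 2.88 higher on the log2 scale (SE 0.47, FDR 0.114). DNAJB1, the HSP40 partner that delivers clients to HSP70, was at 97.7, 87.8 and 124 CPM in HS cows and 29.3, 39.3 and 41.5 CPM in TN cows (log2 fold change 1.47, SE 0.24, FDR 0.114). Neither gene overlapped between the groups, and for both all PF cows lay below all HS cows. SLC17A9, which carries ATP into vesicles, had 20.2, 17.3 and 10.2 CPM in HS cows against 4.04, 4.15 and 5.07 CPM in TN cows, and 4.52, 5.33 and 3.74 CPM in PF cows (log2 fold changes of HS 1.82 against TN and 1.81 against PF). INHBE, a secreted activin subunit made by the liver, was at 30.4, 35.7 and 38.7 CPM in HS cows, 12.1, 5.63 and 11.2 CPM in TN cows and 22.3, 19.5 and 38.9 CPM in PF cows. The PF cows thus lay above the TN cows and overlapped the HS cows for INHBE.

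Further genes of that group were FAM101A (log2 fold change 2.03), OAF (1.35), LOC511161 (2.37) and LOC101905630 (2.43) on the higher side. On the lower side, UNC5C, a receptor for netrins, was at 26.4, 20.6 and 7.4 CPM in TN cows and 1.67, 2.05 and 0.472 CPM in HS cows (log2 fold change -3.71, SE 0.59, FDR 0.105), with PF cows at 1.53, 1.74 and 12.1 CPM. The locus of MIR122, the abundant microRNA of hepatocytes, was at 21, 18.1 and 10.9 CPM in TN cows and 5.16, 4.16 and 3.84 CPM in HS cows (log2 fold change -1.96, SE 0.31, FDR 0.105), with PF cows at 15.6, 6.51 and 6.24 CPM, above the HS cows. The libraries were made from polyadenylated RNA, so that this count does not measure the mature microRNA. LOC101905593 (-1.37) and FAM19A4 (-2.82), a secreted peptide gene, completed the group.

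To describe the response by function, 26 lists of genes were examined. Each list is given by the number of its tested members with an unadjusted p under 0.05, to be read against 4.13% higher and 5.23% lower among all genes tested, by the number whose HS and TN ranges were separate, called no overlap (8.65% higher and 7.48% lower among all genes tested), and by its median log2 fold change against -0.01 for all genes tested. No list was tested as a whole. In the lists below, a gene that is not among the 13 DEGs did not pass the FDR in edgeR.

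**Figure D3:**
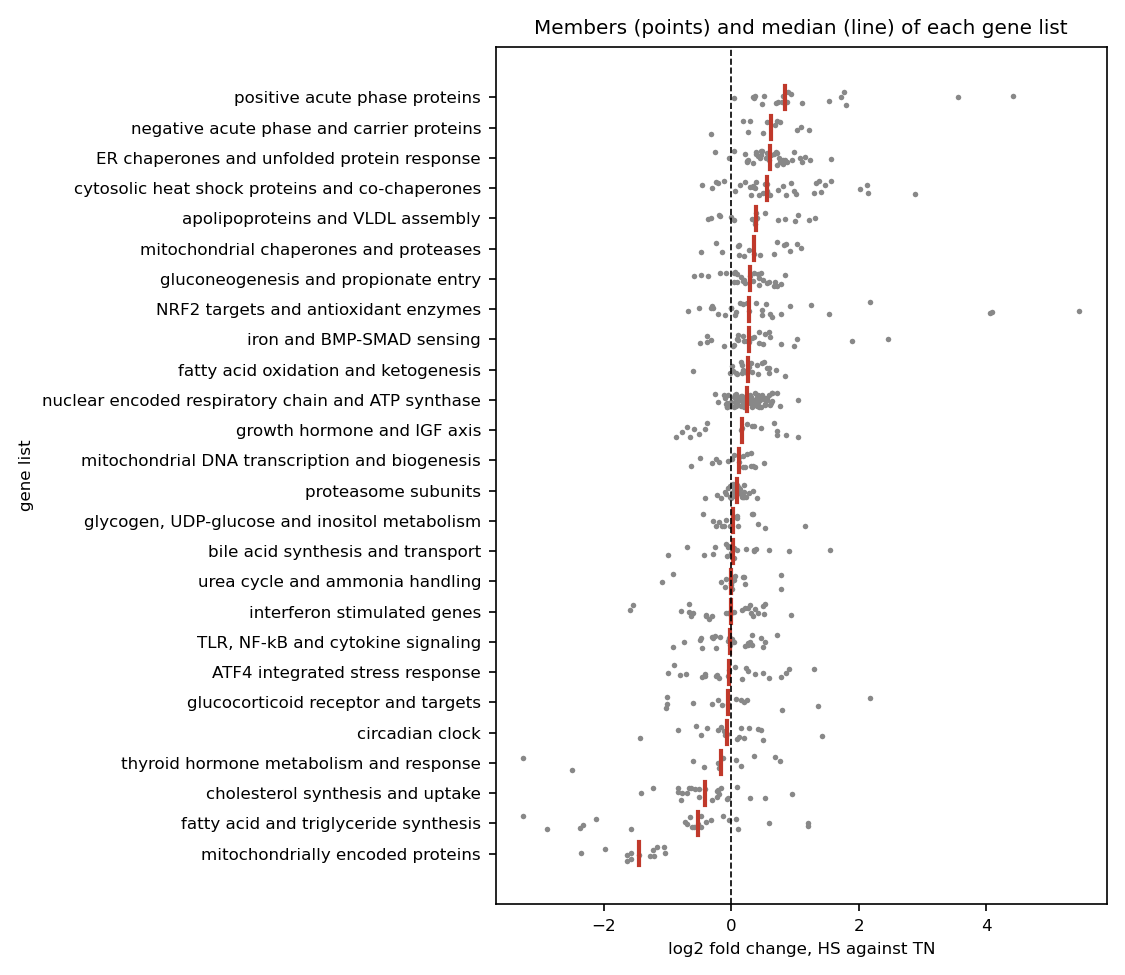
Log2 fold change of HS against TN (horizontal axis) for the tested members of the 26 gene lists (grey points, spread vertically at random for visibility), with the median of each list as a red line and the median of all genes tested, -0.01, as a dashed line. The 13 mitochondrially encoded genes all lie below -1, and the cytosolic and ER chaperone lists have medians of 0.57 and 0.61.

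Members of the list of cytosolic heat shock proteins and co-chaperones were more often higher than lower in HS cows. Of 37 members, 17 had an unadjusted p under 0.05 in the higher direction and none in the lower, 22 had no overlap with HS higher and 1 with HS lower, and the median was 0.57. HSPH1 was the only DEG in edgeR, and 10 members were DEGs in DESeq2. HSPA1A, the inducible HSP70, was at 269, 328 and 677 CPM in HS cows and 60.8, 124 and 123 CPM in TN cows (log2 fold change 2.03, SE 0.44, FDR 0.269; 4.17e-05 by DESeq2). Its PF cows, at 126, 301 and 216 CPM, overlapped the HS cows and lay above all TN cows. The small heat shock protein HSPB1 was at 668, 617 and 1046 CPM in HS cows and 171, 382 and 315 CPM in TN cows (1.41 against TN, SE 0.40, FDR 0.392; 0.0046 by DESeq2). PF cows were at 291, 654 and 502 CPM. CRYAB, another small heat shock protein, was at 218, 102 and 142 CPM in HS cows, 16 to 69.9 CPM in TN cows and 5.7 to 26.8 CPM in PF cows; its log2 fold change was 2.14 (SE 0.56) against TN and 3.33 against PF (FDR 0.102). At the lower end was HSPA4L, an HSP110 relative of HSPH1, at -0.46 (SE 0.46; -0.08 without TN replicate 1), with overlapping groups. Within the list the median position of the cows was 0.59, 0.53 and 0.82 for HS, -0.26, 0.14 and 0.12 for TN, and 0.10, 0.44 and 0.10 for PF, in log2 units from the TN mean, so that each HS cow lay above each TN and PF cow. Without TN replicate 1, 13 members had an unadjusted p under 0.05 in the higher direction and the median was 0.49.

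In the ER list, too, more members were higher than lower in HS cows. Among 38 chaperones and unfolded protein response genes, 16 had an unadjusted p under 0.05, all in the higher direction, 18 had no overlap with HS higher and none with HS lower, and the median was 0.61. edgeR called 0 of them and DESeq2 called 6. PDIA4, an isomerase of disulfide bonds, was at 201, 293 and 300 CPM in HS cows and 45.2, 114 and 107 CPM in TN cows (log2 fold change 1.56, SE 0.38, FDR 0.290). The chaperone partner SDF2L1 was at 45.9, 62.7 and 79.2 CPM against 15, 27.1 and 36.5 CPM (1.24, SE 0.33, FDR 0.352). CREB3L3, a membrane-bound transcription factor of the hepatocyte that is released by ER stress, was at 76.9, 117 and 91.9 CPM against 41, 51.5 and 52.2 CPM (0.96, SE 0.24, FDR 0.322). CALR, the calcium-binding chaperone of glycoproteins, was at 500, 692 and 725 CPM against 184, 297 and 368 CPM (1.16, SE 0.36, FDR 0.419). PF cows overlapped the HS cows for these 4 genes, and their log2 fold changes of HS against PF were 0.61, 0.32, 0.23 and 0.47. Across the list the PF cows lay at 0.37, 0.71 and 0.34, the HS cows at 0.47, 0.65 and 0.85 and the TN cows at -0.51, 0.13 and 0.34. Without TN replicate 1, 11 members had an unadjusted p under 0.05 and the median was 0.49.

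The chaperones and proteases of the mitochondria had a median of 0.36, with 5 of 17 members at an unadjusted p under 0.05 in the higher direction, 3 without overlap, all higher, and 0 DEGs in edgeR and in DESeq2. HSPD1, the chaperonin HSP60, was at 186, 195 and 332 CPM in HS cows and 44.1, 168 and 120 CPM in TN cows (log2 fold change 1.09, SE 0.46, FDR 0.512; 0.72 without TN replicate 1), and at 170, 193 and 173 CPM in PF cows. PHB, prohibitin of the inner membrane, had a log2 fold change of 0.93 (SE 0.38; 0.61 without that cow) and the protease OMA1 one of 0.82 (SE 0.30). The protease SPG7 lay at -0.47 (SE 0.27; -0.30 without that cow). Without TN replicate 1 the median of the list was 0.17 and no member had an unadjusted p under 0.05.

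The proteasome and the ATF4 pathway, which answers amino acid shortage and other stress, had medians near that of all genes. Among 31 proteasome subunits, 0 were DEGs in edgeR or DESeq2 and 0 had an unadjusted p under 0.05, 1 in each direction had no overlap, and the log2 fold changes ran from -0.41 (PSMC2, SE 0.23) to 0.40 (PSMA4, SE 0.42; 0.02 without TN replicate 1). Their median was 0.09, -0.17 without TN replicate 1 and 0.26 without TN replicate 2. In the ATF4 list, 2 of 23 members had an unadjusted p under 0.05 in each direction, 4 had no overlap with HS higher and 2 with HS lower, 0 were DEGs in edgeR and 1, ATF5, in DESeq2, and the median was -0.04. PHGDH, the first enzyme of serine synthesis, was at 133, 112 and 160 CPM in HS cows, 43.1, 76.6 and 94 CPM in TN cows and 174, 206 and 121 CPM in PF cows (0.90 against TN, SE 0.31). CEBPB had a log2 fold change of 0.60 (SE 0.21), GDF15, a stress hormone near its detection floor, 1.30 (SE 0.61) and the mTOR inhibitor DDIT4 -0.99 (SE 0.46; -0.26 without TN replicate 1).

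The transcripts encoded by the mitochondrial genome were lower in each HS cow than in any TN cow, while the summed share of the nuclear encoded subunits overlapped. All 13 mitochondrially encoded genes had lower levels without overlap, 12 of them with an unadjusted p under 0.05, and their median log2 fold change was -1.45. edgeR called 0 of them as DEGs and DESeq2 all 13. Left without TN replicate 1, the median was -1.37 and all 13 had an unadjusted p under 0.05. ND6, the subunit encoded on the light strand, was at 497, 507 and 284 CPM in HS cows, 1747, 1243 and 1999 CPM in TN cows and 1260.4, 842 and 778 CPM in PF cows (log2 fold change -1.99 against TN, SE 0.42, FDR 0.249; -1.17 against PF). ND5 had a log2 fold change of -1.64 (SE 0.42) and ND4L one of -1.27 (SE 0.30), both complex I subunits. COX1, a core subunit of cytochrome oxidase, had the largest difference at -2.36 (SE 0.71, FDR 0.396), and ATP6 of the ATP synthase the smallest at -1.04 (SE 0.51, FDR 0.540).

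As a share of all counts of a library, the 13 genes took 5.47%, 5.68% and 3.84% in HS cows, 22.2%, 13.6% and 18.3% in TN cows and 6.90%, 7.13% and 7.79% in PF cows. No HS cow overlapped a TN or PF cow, and no PF cow overlapped a TN cow. The 76 nuclear encoded genes of the respiratory chain and ATP synthase, those of complex II and CYCS included, took 0.752%, 0.745% and 0.875% in HS cows and 0.523%, 0.818% and 0.737% in TN cows, which overlap. In that list 2 members had an unadjusted p under 0.05, both higher, 2 had no overlap (2.63%, against 16.1% of all genes tested), and 0 were DEGs in edgeR or DESeq2. SDHC of complex II had the highest log2 fold change, 1.05 (SE 0.43, FDR 0.504), followed among the smallest p by ATP5MC2, 0.77 (SE 0.33; 0.47 without TN replicate 1), and NDUFB4, 0.65 (SE 0.29). The median was 0.25, 0.01 without TN replicate 1 and 0.46 without TN replicate 2. The ratio of mitochondrially to nuclear encoded counts was thus 7.27, 7.62 and 4.40 in HS cows, 42.5, 16.6 and 24.9 in TN cows and 9.24, 7.98 and 9.93 in PF cows. The 19 genes of mitochondrial transcription and biogenesis had a median of 0.12 (0.06 without TN replicate 1 and 0.26 without HS replicate 1), and none had an unadjusted p under 0.05. Among them were 3 without overlap with HS higher and 1 with HS lower, and 0 DEGs in edgeR or DESeq2. POLRMT, the mitochondrial RNA polymerase, was at 12.4, 10.1 and 12.7 CPM in HS cows and 23.8, 12.8 and 16.2 CPM in TN cows (log2 fold change -0.63, SE 0.28; -0.31 without TN replicate 1), whereas MTERF1 (0.37, SE 0.23) and the transcription factor TFB2M (0.51, SE 0.33; 0.24 without TN replicate 1) lay on the other side.

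**Figure D4:**
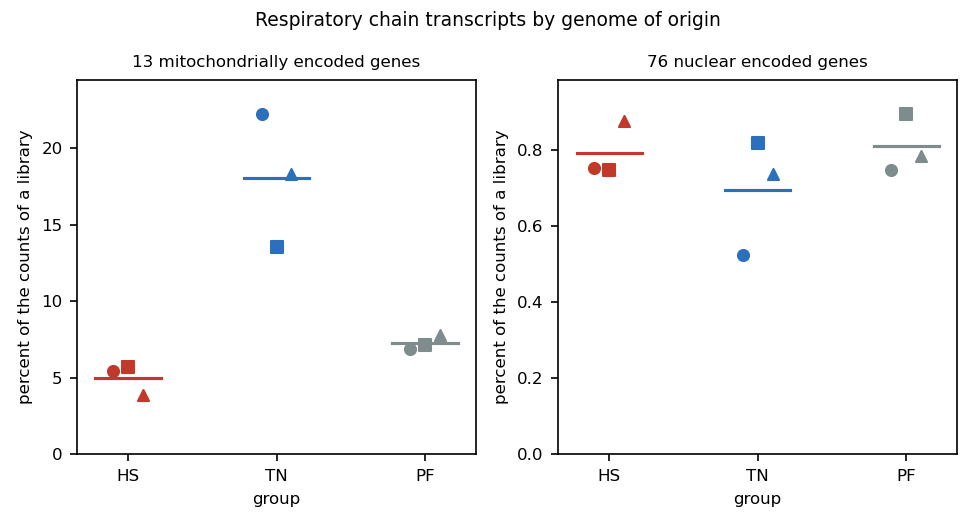
Share of the counts of each library in percent (vertical axes, from 0) taken by the 13 mitochondrially encoded genes (left) and by 76 nuclear encoded genes of the respiratory chain and ATP synthase (right), by group; markers are cows (circle, square and triangle for replicates 1, 2 and 3) and lines are group means. The mitochondrial shares separate the groups (3.84% to 5.68% in HS, 6.90% to 7.79% in PF and 13.6% to 22.2% in TN), while the nuclear shares overlap.

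Acute phase genes varied widely between the cows of a group. All 20 positive acute phase genes had a log2 fold change above 0, as did 7186 of the 14582 genes tested, and their median was 0.85. Without TN replicate 1, 17 of the list were above 0 and 3 below. With all cows, 3 had an unadjusted p under 0.05 and 3 had no overlap. edgeR called 0 and DESeq2 2 of them. SAA3, a serum amyloid A, was at 69.6, 165 and 17.7 CPM in HS cows, 6.01, 5.14 and 9.85 CPM in TN cows and 13, 27.1 and 20.4 CPM in PF cows (log2 fold change 3.56, SE 0.68, FDR 0.184; 0.00489 by DESeq2). Haptoglobin, HP, which binds free haemoglobin, was at 1732, 19424 and 234 CPM in HS cows and 14.3, 135 and 846 CPM in TN cows (4.41 against TN, SE 1.69, FDR 0.487; 1.56 without HS replicate 2). PF cows were at 9.11, 1107 and 211 CPM. Its groups overlapped, and HS replicate 2 alone was far above the others. ITIH4 was at 2012, 9563 and 3848 CPM in HS cows against 657, 1641 and 2065 CPM in TN cows and 848, 2213 and 1420 CPM in PF cows (1.80 against TN, SE 0.68, FDR 0.478). The median of the list was 0.46 without HS replicate 2 and 0.50 without TN replicate 1. Among 12 carrier proteins that fall in an acute phase reaction, 0 had an unadjusted p under 0.05 and 0 had no overlap. edgeR and DESeq2 called 0 of them. A log2 fold change above 0 was found in 11 of the 12, and in 9 without TN replicate 1, the cow with the low hepatocyte sum. Their median of 0.62 became 0.22 without that cow and 0.95 without TN replicate 2. APOA1 had a log2 fold change of 1.22 (SE 0.65), AHSG of 1.09 (SE 0.72) and SERPINA7, the thyroxine carrier, of 0.68 (SE 0.32). Without TN replicate 1 these values were 1.71, 0.64 and 0.51, so that APOA1 rose while the others fell.

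Markers of neutrophils were higher in sum in each HS cow than in any TN cow, but most of them overlapped singly. The neutrophil markers summed to 71.2 to 145 CPM in HS cows, 33.4 to 57.3 CPM in TN cows and 42.2 to 75.3 CPM in PF cows. All 7 tested markers had a log2 fold change above 0, from 0.03 for CXCR1 to 1.94 for S100A8, 2 with an unadjusted p under 0.05. Only 1 of the 7 had no overlap (14.3%, against 16.1% of all genes tested), and CAMP was at 0. Among macrophage markers, which summed to 2379 to 4006 CPM in HS cows and 1621 to 3711 CPM in TN cows, 1 of 11 had an unadjusted p under 0.05: MARCO, a scavenger receptor of Kupffer cells, at 139, 144 and 329 CPM in HS cows and 49.4, 90.6 and 81 CPM in TN cows (log2 fold change 1.45, SE 0.40, FDR 0.381). PF cows were at 73.5, 129 and 44.9 CPM. The part of these cells in the acute phase values was not tested. Of 26 genes of the Toll-like receptor, NF-kB and cytokine list, 0 had an unadjusted p under 0.05 and 3 had no overlap with HS higher and 2 with HS lower, with a median of -0.01. NFKB1 had a log2 fold change of -0.49 (SE 0.23) and the receptor IL6R one of 0.47 (SE 0.26). Among 27 interferon stimulated genes, 0 had an unadjusted p under 0.05, 1 had no overlap, with HS higher, and the median was 0.00. STAT2 lay at -0.66 (SE 0.32; -0.29 without TN replicate 1) and IFIT5 at 0.53 (SE 0.26; 0.33 without that cow). Neither list held a DEG in edgeR or DESeq2. The interferon median ran from -0.42 without HS replicate 3 to 0.38 without TN replicate 2.

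HAMP is a target of bone morphogenetic protein (BMP) signaling, the pathway by which the liver senses iron. Of the 28 genes of that list, 5 had an unadjusted p under 0.05, all higher, 9 had no overlap with HS higher and 1 with HS lower, and the median was 0.27 (0.32 without TN replicate 1, with 7 members at an unadjusted p under 0.05). ID1, an immediate target of BMP signals, was at 191, 155 and 131 CPM in HS cows, 56.4, 44.6 and 24.4 CPM in TN cows and 34.5, 161 and 99.9 CPM in PF cows (log2 fold change 1.89, SE 0.35, FDR 0.166; 8.06e-06 by DESeq2). ATOH8, a transcription factor that activates HAMP, was at 54.8, 50.5 and 57.2 CPM in HS cows, 18.9, 33.1 and 25.9 CPM in TN cows and 19.1, 17.8 and 33.5 CPM in PF cows (1.04 against TN, SE 0.23, FDR 0.270; 1.2 against PF, FDR 0.315). TMPRSS6, the protease that damps the pathway, was at 158, 201 and 203 CPM against 263, 233 and 281 CPM in TN cows (-0.50, SE 0.27, FDR 0.576). The HS and TN ranges were separate for these genes, while PF replicate 2 lay above the HS cows for HAMP and among them for ID1.

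The 12 tested genes of thyroid hormone metabolism and response, DIO1 among them, had a median of -0.16, with 1 member higher and 2 lower at an unadjusted p under 0.05 and the same numbers without overlap. THRSP, which responds to thyroid hormone and carbohydrate and serves lipogenesis, was at 1.19, 1.17 and 12.4 CPM in HS cows, 42.5, 22.3 and 70.7 CPM in TN cows and 12.2, 6.39 and 1.48 CPM in PF cows (log2 fold change -3.26, SE 0.86, FDR 0.345). The receptor THRA was at 37.6, 48.4 and 60.5 CPM against 35.5, 22.3 and 26.4 CPM (0.76, SE 0.27, FDR 0.462). For THRSP the PF cows stood with the HS cows, unlike for DIO1.

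In the growth hormone, glucocorticoid and clock lists, 10.5%, 26.7% and 10.5% of members had an unadjusted p under 0.05, against 9.36% of all genes tested. edgeR called 0 members, whereas DESeq2 called 1 higher and 2 lower glucocorticoid genes, 1 clock gene in each direction and 0 growth hormone genes. For growth hormone and insulin-like growth factors, 1 of 19 members had an unadjusted p under 0.05 in each direction, IGFALS (0.86, SE 0.34) and STAT5A (-0.58, SE 0.26). In that list 1 had no overlap, with HS higher, and the median was 0.16 (0.36 without HS replicate 1). Of 15 glucocorticoid genes, 2 had an unadjusted p under 0.05 in each direction, 1 had no overlap with HS higher and 2 with HS lower, and the median was -0.05 (-0.22 without TN replicate 3 and 0.10 without TN replicate 1). FKBP5, a brake on the receptor that glucocorticoids induce, was at 56, 23.8 and 26.7 CPM in HS cows, 7.64, 21.3 and 12.4 CPM in TN cows and 8.34, 13 and 6.4 CPM in PF cows (log2 fold changes 1.35 against TN, SE 0.42, FDR 0.417, and 1.94 against PF, FDR 0.183). The kinase SGK1, another such target, was lower in each HS cow, at 65.4, 74 and 38.6 CPM in HS cows and 142, 113 and 98.9 CPM in TN cows and 81.2, 123 and 80.3 CPM in PF cows (-1.03 against TN, SE 0.30, FDR 0.394), as did ERRFI1, an inhibitor of the EGF receptor, at 127, 192 and 150 CPM against 321, 266 and 337 CPM (-1.01 against TN, SE 0.29, FDR 0.392). PF cows were at 275, 341 and 389 CPM. In the clock list of 19 genes, 1 had an unadjusted p under 0.05 in each direction, 3 had no overlap with HS higher and 1 with HS lower, and the median was -0.06 (0.06 without HS replicate 1). The repressor NR1D1 was at 14.3, 40 and 26.5 CPM in HS cows, 10.4, 13.3 and 5.79 CPM in TN cows and 4.64, 2.19 and 6.65 CPM in PF cows (1.42 against TN, SE 0.41, FDR 0.392; 2.57 against PF, FDR 0.127). The hour at which each biopsy was taken is not given in the sources used here.

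Genes of lipid synthesis differed widely between the cows of a group. Of 23 genes of fatty acid and triglyceride synthesis, 5 had an unadjusted p under 0.05 in the lower and 1 in the higher direction, 4 and 2 had no overlap, and the median was -0.52 (-0.56 without TN replicate 1); edgeR called 0 and DESeq2 called 2 lower and 1 higher. ACACA, which makes malonyl-CoA for fatty acid synthesis, was at 32.3, 25.1 and 38.4 CPM in HS cows, 182, 40.3 and 184 CPM in TN cows and 35.3, 36.7 and 15.1 CPM in PF cows (log2 fold change -2.12, SE 0.51, FDR 0.290). FASN, the synthase itself, was at 27.9, 10.5 and 50.6 CPM in HS cows and 175, 42.7 and 218 CPM in TN cows, with PF cows at 37.9, 56.8 and 9.93 CPM (-2.32 against TN, SE 0.66, FDR 0.392), and HS and TN overlapped. Against PF, the log2 fold changes of HS were 0.13 for ACACA and -0.24 for FASN. ACACB, whose malonyl-CoA holds back fatty acid oxidation, lay at 1.2 (SE 0.83).

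The cholesterol list had a median of -0.41 over 25 genes, with 2 members lower and 1 higher at an unadjusted p under 0.05, 1 without overlap in each direction, 0 DEGs in edgeR and 1 in each direction in DESeq2. This value depended on the cow: it was -1.02 without HS replicate 3 and -0.11 without TN replicate 3. INSIG1, which retains the sterol sensor in the ER, was at 237, 178 and 195 CPM in HS cows and 372, 436 and 591 CPM in TN cows (log2 fold change -1.22, SE 0.32, FDR 0.330). PF cows were at 296, 635 and 248 CPM. The exporter ABCA1 was higher in each HS cow, at 130, 184 and 88.8 CPM against 63.6, 72 and 68.1 CPM (0.95, SE 0.29, FDR 0.417).

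**Figure D5:**
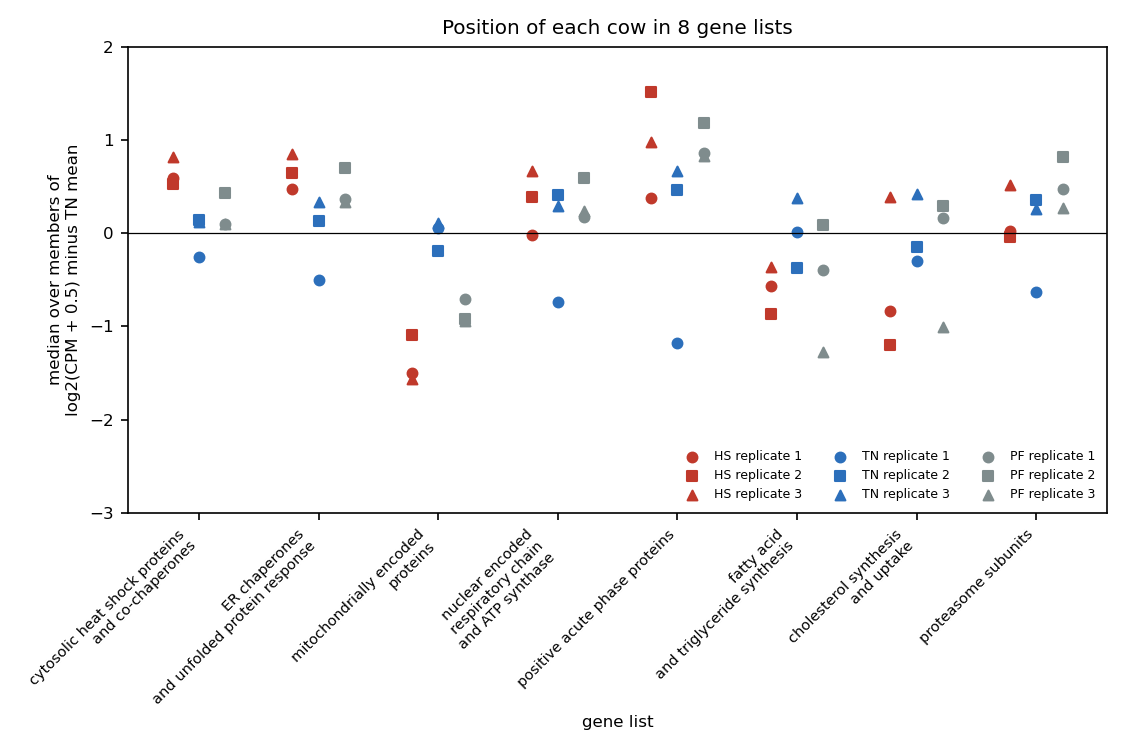
Position of each cow in 8 gene lists, as the median over the members of log2(CPM + 0.5) minus the mean of the TN cows for the same gene (vertical axis), with HS in red, TN in blue and PF in grey. HS cows lie above all TN cows for the cytosolic (0.53 to 0.82 against -0.26 to 0.14) and ER chaperones and below all of them for the mitochondrially encoded genes, TN replicate 1 lies lowest of the TN cows in 6 of the 8 lists, and HS and TN cows overlap in the other 5 lists.

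The 4 lists of fuel metabolism had medians of 0.00 to 0.30, and those of fatty acid oxidation and of gluconeogenesis changed with the cow left out. Of 26 genes of fatty acid oxidation and ketogenesis, 1 had an unadjusted p under 0.05, HADHA of the trifunctional protein, at 208, 231 and 271 CPM in HS cows and 76.7, 168 and 145 CPM in TN cows (log2 fold change 0.85, SE 0.33, FDR 0.487), and 3 had no overlap, all with HS higher. PF cows had 205, 210 and 271 CPM of HADHA, above all TN cows. Its partner HADHB lay at 0.70 (SE 0.36; 0.39 without TN replicate 1) and the regulator PPARA at 0.49 (SE 0.27). The median of 0.27 was 0.04 without TN replicate 1 and also without HS replicate 3, and 0.45 without TN replicate 2. For gluconeogenesis and propionate entry, 2 of 29 genes had an unadjusted p under 0.05, LDHA (0.67, SE 0.26) and GOT1 (0.79, SE 0.34), 1 had no overlap, with HS higher, and the median of 0.30 became 0.11 without TN replicate 1, 0.07 without HS replicate 3 and 0.46 without HS replicate 1. G6PC, the enzyme that releases glucose, lay at -0.58 (SE 0.40) and FBP1 at 0.85 (SE 0.47; 0.45 without TN replicate 1). UGP2, which makes UDP-glucose for glycogen, was at 106, 107 and 115 CPM in HS cows, 32.9, 62 and 50.4 CPM in TN cows and 114, 118 and 157 CPM in PF cows (1.15 against TN, SE 0.26, FDR 0.272). It was the 1 of 16 members of its list with an unadjusted p under 0.05 and the 1 without overlap, and that list had a median of 0.04. The urea cycle list of 16 genes had a median of 0.00 and 2 members with an unadjusted p under 0.05, both lower and 1 of them without overlap. ASL was at 286, 519 and 610 CPM in HS cows and 887, 808 and 914 CPM in TN cows (-0.91, SE 0.38) and the ammonia channel RHBG lay at -1.09 (SE 0.38). Of these 4 lists, edgeR called no member and DESeq2 only UGP2.

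The antioxidant list held a haem-degrading enzyme that was higher in each HS cow and metal-binding proteins that varied widely. Of 29 members, 6 had an unadjusted p under 0.05, all higher, 4 had no overlap with HS higher and 1 with HS lower, and the median was 0.28 (0.12 without TN replicate 1, with 4 such members; 0.08 without HS replicate 3 and 0.47 without TN replicate 2). Haem oxygenase, HMOX1, was at 244, 125 and 297 CPM in HS cows, 55.1, 104 and 67.5 CPM in TN cows and 76, 97.6 and 85.2 CPM in PF cows, with no overlap (log2 fold change 1.53, SE 0.38, FDR 0.315; 0.00313 by DESeq2, the only DESeq2 DEG of the list). GPX3, MT1E and MT1A had larger fold changes, but HS replicate 3 lay among the TN cows for each. The plasma glutathione peroxidase GPX3 was at 1190.1, 1610.2 and 37.8 CPM in HS cows against 10.8, 61.4 and 97.2 CPM in TN cows and 15.9, 181 and 40.6 CPM in PF cows (4.05 against TN, SE 1.18, FDR 0.392). The metallothioneins MT1E, at 254, 1013 and 23.4 CPM against 3.25, 51.7 and 20.2 CPM (4.09, SE 1.26), and MT1A, at 101, 1341 and 5.66 CPM against 0, 29.9 and 2.92 CPM (5.46, SE 2.03; 2.29 without HS replicate 2), were likewise spread over the cows, with PF cows at 38.1 to 459.7 CPM and 22.9 to 358 CPM. Metallothionein genes are close copies, and reads may be split among them. GCLC, which limits glutathione synthesis, lay at -0.67 (SE 0.38).

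Bile acid genes had a median of 0.03 over 21 members (-0.24 without HS replicate 3 and 0.20 without TN replicate 3), 2 of them with an unadjusted p under 0.05, BAAT (1.55, SE 0.52) at 1.89 to 2.17 CPM in HS cows and KLB (0.59, SE 0.22), 2 without overlap, both with HS higher, and 0 DEGs in edgeR and DESeq2. CYP7A1, the first enzyme of the pathway, was at 22.8, 34.9 and 256 CPM in HS cows and 378, 73.6 and 148 CPM in TN cows (-0.99 against TN, SE 0.88; -0.09 without TN replicate 1 and -2.84 without HS replicate 3). PF cows were at 112, 15.6 and 36.3 CPM. Of 18 apolipoprotein and lipoprotein assembly genes, 4 had an unadjusted p under 0.05 in the higher direction and 4 had no overlap, with HS higher, with a median of 0.38 (0.10 without TN replicate 1, again with 4 such members; 0.08 without HS replicate 3 and 0.59 without TN replicate 2), 0 DEGs in edgeR and 2 in DESeq2. APOC2, the activator of lipoprotein lipase, was at 315, 408 and 349 CPM in HS cows, 90, 172 and 165 CPM in TN cows and 228, 201 and 535 CPM in PF cows (1.31, SE 0.33, FDR 0.315; 0.00215 by DESeq2). APOA4 was at 223, 196 and 171 CPM against 122, 72 and 82 CPM in TN cows and 305, 66 and 485 CPM in PF cows (1.05 against TN, SE 0.30, FDR 0.392), and LCAT, which esterifies cholesterol in plasma, lay at 0.84 (SE 0.30).

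Some genes that the study itself chose on these samples, among its transcription factors and cofactors and its RT-qPCR genes, are given as a description. WFDC2, a secreted protease inhibitor of epithelia, was at 47.7, 60.5 and 109 CPM in HS cows, 4.83, 18.3 and 17 CPM in TN cows and 9.11, 3.03 and 15 CPM in PF cows (log2 fold changes 2.43 against TN, SE 0.48, FDR 0.218, and 2.99 against PF, FDR 0.127). PRAP1 was at 16, 14.9 and 8.63 CPM in HS cows and 432, 20.7 and 108 CPM in TN cows (-3.89, SE 0.91, FDR 0.280; -2.29 without TN replicate 1), and at 3.35 to 12.1 CPM in PF cows. Of the regulators, the zinc finger genes ZNF653 (-1.16, SE 0.28) and ZNF304 (-1.10, SE 0.25) were lower in each HS cow than in any TN cow, and WWC1, a scaffold of the Hippo pathway, was higher (1.23, SE 0.32). CLU, a secreted chaperone, was at 1462, 1482 and 1876 CPM in HS cows, 298, 998 and 790 CPM in TN cows and 1292 to 1647 CPM in PF cows (1.19, SE 0.48, FDR 0.495).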

How the data were processed

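Liver biopsies of 9 lactating Holstein cows were sequenced by the authors as paired-end polyA libraries, 3 cows each under heat stress, pair-feeding and thermoneutrality; groups were taken from the sample titles. The deposited values are raw counts per gene, which the authors made by filtering with fastp 0.23.2, alignment to ARS-UCD1.2 with STAR 2.7.9a and counting with featureCounts 2.0.3, without normalization. The annotation release, the strand setting and the handling of multi-mapping reads are not given in the sources used here. The labels assign each of the 9 columns to a cow (0 columns had no sample). Of 28786 genes listed, 21008 had a count, and 24366 symbols were found in RefSeq ARS-UCD2.0, a later assembly used only for gene types and overlapping genes, so that no coordinates are given.

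HS and TN were fitted on 6 libraries (R 4.3.3, edgeR 4.0.16; TMM, filterByExpr, quasi-likelihood F test, Benjamini-Hochberg over all genes tested); HS against PF and PF against TN were fitted in the same way. The SE of a log2 fold change was obtained from the F statistic. Levels are TMM-normalised CPM over all 9 libraries, plotted with an offset of 0.5, and the floor of a library was set at 3 counts. Counts carry no molecular identifiers, so that floors cover counting error only. The p-values set the group difference against a variance among 3 cows per group, drawn towards that of other genes. With 1 library per cow, differences between biopsies and libraries are part of that variance. The fits were first checked on simulated counts with known fold changes and no outlying cow, which says nothing of a cow such as TN replicate 1. CPM carries no gene length and was not compared between genes.

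The genes named are the DEGs, the 12 genes that follow them by p with a mean of at least 1 CPM in a group, in each of 26 gene lists the 3 members with the smallest p and those with the highest and the lowest fold change, the study's RT-qPCR genes and transcription factors, and the extreme members of 15 marker lists; the text names some of these, and a few are not reported here. Markers at 0 are named as well. The members and lists were chosen with earlier results of these data known. Alternatives were DESeq2 1.42.0, RLE size factors, library sizes without the mitochondrial genes, no filter, at least 10 counts in every library, all 9 libraries in 1 fit, a replicate block, an FDR under 0.05, glmTreat, and fits that each left out 1 cow; the counts per list without TN replicate 1 were added after the data were examined.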

Additional observations from a re-analysis of the deposited data

How the results depend on the processing

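Of the 13 DEGs (5 higher, 8 lower), RLE size factors gave 16 and leaving the mitochondrial genes out gave 13. DESeq2 gave 270 (133 higher, 137 lower) and no filter on low counts 124 (60 and 64). A minimum of 10 counts in every library gave 10, with 3 higher. All 9 libraries in 1 fit gave 4 (0 and 4), glmTreat gave 2 (2 and 0), and an FDR under 0.05 gave 0 (0 and 0). When each cow was left out in turn, the number of DEGs ran from 0 to 39, of higher ones from 0 to 6 and of lower ones from 0 to 33. The cause of these differences was not tested. With the replicate number as a block, 33 DEGs were found (16 higher, 17 lower); the numbers name different cows, and the deviations of same-numbered HS and TN cows had correlations of 0.25, -0.19 and 0.15 across genes, so that not every cow matched its own number best and the numbers were not taken as pairs. Among the genes named, the sign turned with a cow left out for SPP1, whose log2 fold change ran from -4.62 to 2.14, and for AHSP, from -0.30 to 0.76. With 3 cows a group, genes of at most 1 CPM had a median SE of 0.79 on the log2 scale, which limits what could be found among them.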

Other observations

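The summed markers of most other cell types overlapped between HS and TN cows, whereas those of red cells, like those of neutrophils, did not. HBB, the beta globin of red cells, was at 1.08, 0.527 and 0.337 CPM in HS cows, 7.68, 3.22 and 22.4 CPM in TN cows and 0, 2.13 and 2.05 CPM in PF cows (log2 fold change of HS against TN -4.04, SE 0.74, FDR 0.163; 2.95e-07 by DESeq2), and the erythroid sum was 0.876 to 2.64 CPM in HS cows and 4.15 to 23.2 CPM in TN cows. AHSP, the globin chaperone and the only other erythroid marker tested, had a log2 fold change of 0.41 (SE 0.79), with overlap, and 3 of the 8 markers had at most 3 counts in any HS or TN library. T and NK cell markers summed to 78.1 to 86.4 CPM in HS cows and 82.7 to 125 CPM in TN cows; 12 of 13 tested markers had a log2 fold change below 0, with a median of -0.63, and NCR1, a receptor of NK cells, at 0.631, 0.586 and 1.62 CPM in HS cows and 2.85, 2.60 and 2.09 CPM in TN cows, was the 1 with an unadjusted p under 0.05 (-1.46, SE 0.57, FDR 0.490). B and plasma cell markers summed to 86.8 to 119 CPM in HS cows and 78.1 to 141 CPM in TN cows. Endothelial markers summed to 781 to 1187 CPM and 790 to 1078 CPM, and those of stellate cells and fibroblasts to 258 to 608 CPM and 329 to 607 CPM.

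Cholangiocyte markers summed to 25.9 to 126 CPM in HS cows and 53.5 to 140 CPM in TN cows, and the log2 fold change was above 0 in 5 of the 7 tested and below 0 in 2. The tight junction gene CLDN4 was higher in each HS cow than in any TN cow, at 15.7, 12.7 and 4.99 CPM against 3.56, 3.03 and 4.54 CPM (log2 fold change 1.56, SE 0.42, FDR 0.352). At the other end SPP1, osteopontin, was at 8.76, 1.29 and 1.69 CPM in HS cows and 0.746, 108 and 1.01 CPM in TN cows (-3.18, SE 1.56, FDR 0.537), and the sign rested on TN replicate 2 (2.14 without it). CCNA2, a cyclin of dividing cells, was at 1.97, 0.41 and 0.472 CPM in HS cows and 2.46, 3.22 and 2.63 CPM in TN cows (-1.52, SE 0.66, FDR 0.518), and the proliferation markers summed to 5.06 to 15.3 CPM and 11.6 to 20.1 CPM. CYP11A1, the first enzyme of steroid synthesis, was at 122, 117 and 141 CPM in HS cows and 24.8, 64.5 and 173 CPM in TN cows (0.52, SE 0.55, FDR 0.750; 0.09 without TN replicate 1). Its PF cows had 9.75, 19.3 and 13.9 CPM, and CYP11A1 was 1 of the 4 DEGs of HS against PF (log2 fold change 3.14, FDR 0.00269). Of the 8 adrenal and steroidogenic markers, CYP11B1, CYP17A1, MC2R and NR5A1 were at 0 in all HS and TN libraries. STAR was at 6.24, 3.93 and 5.39 CPM in HS cows and 3.91, 5.88 and 4.00 CPM in TN cows. All 3 tested, CYP11A1, STAR and HSD3B1, had a log2 fold change above 0 in HS against TN, none with an unadjusted p under 0.05. Skeletal muscle markers summed to 1.45 to 2.17 CPM in HS cows and 1.61 to 2.74 CPM in TN cows, with ACTA1, MYH1, MYH7 and MYL1 at 0. The keratinocyte genes KRT5, KRT1 and LOR were at 0 as well, and adipocyte markers summed to 8.67 to 11 CPM in HS cows and 7.31 to 11.1 CPM in TN cows.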
